A study of Homo sapiens with 24 samples.

Results

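Newly made RNA of U2OS cells expressing wild-type glucocorticoid receptor (GR) was compared after 3 h of dexamethasone and in the ethanol control. The comparison held 4 of the 24 libraries of the study, 2 at 3 h and 2 at 0 h, chosen by the genotype and treatment that the labels give. U2OS is a human osteosarcoma line, and the cells stably carried GR fused at its C-terminus to HaloTag, a protein tag that takes a fluorescent dye (genotype wt GR-HaloTag). At 3 h they had received 100 nM dexamethasone (dex), a synthetic glucocorticoid, and at 0 h 0.01% ethanol, and in both groups 200 µM 4-thiouridine (4sU) was present for the last 1 h, so that RNA made in that hour could be purified and sequenced. The other 20 libraries were wt at 1 h and 2 h and 2 mutant lines at all 4 times, SoF (K492A) and Ctrl (R470A). According to the paper, SoF has lowered affinity for RNA and, to a lesser degree, for DNA. Ctrl was meant to match SoF in affinity for DNA, though its reported loss is somewhat larger, and it keeps wt affinity for RNA. All groups were grown in charcoal-stripped serum. The receptor was driven by a CMV promoter from an integrated transposon in 1 puromycin-selected and sorted pool, so each line is 1 pool. The labels do not say that the 2 libraries of a group came from separate cultures, so the p-values below measure only the spread between libraries, which may be technical. The methods say that the pulldown of labelled RNA was carried out on replicates in pairs, and where these are the 2 libraries of a group, pulldown and group cannot be told apart. How long the 0 h cells stayed in ethanol after their change of medium is not stated, so time since that change and time in dex cannot be told apart.

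GR is a nuclear receptor that waits in the cytoplasm with chaperones until a glucocorticoid binds it. It then enters the nucleus, binds response elements built from the half-site AGAACA and recruits coactivators, which raises transcription of genes for metabolic enzymes, ion transport and feedback on inflammatory and growth signals. At other genes it lowers transcription, often through factors of the AP-1 and NF-kB families. Because 4sU marks RNA made in the last hour, a value reflects recent synthesis more than the standing pool of a message.

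Total exon counts were 15820806 and 13060082 at 0 h and 13500150 and 14807249 at 3 h, and 23651 genes were tested. The 0 h libraries differed from each other more than the 3 h libraries did, with a spread between the 2 libraries of 19.7 and 7.26 times counting error (chi-square per degree of freedom). Levels below are CPM, counts scaled to sequencing depth and TMM factors per 1000000 counts, given for both libraries of a group in the order replicate 1, replicate 2. Of 14 osteoblast and osteosarcoma markers 9 passed the low-count filter. Their summed level was 1147 and 1131 CPM at 0 h and 1029 and 1384 CPM at 3 h, carried by SPARC, COL1A1 and RUNX2, while IBSP had no count, COL1A2 reached 0.337 CPM in 1 library and SP7, DLX5 and TWIST1 stayed below 0.1 CPM in all 4 libraries. Of 8 haematopoietic markers 2 passed the filter, with a summed level of 2.01 to 3.57 CPM, 5 endothelial markers summed to 4.85 to 7.82 CPM, and 6 epithelial markers, carried by KRT8 and KRT18, to 400 to 487 CPM. The 0 h and 3 h sums overlapped for 3 of the 4 marker lists, and the haematopoietic sum was lower in both libraries at 3 h. Single markers were called all the same. ALPL and KDR were called as rising (adjusted p 0.00665 and 0.0162 in edgeR). RUNX2, TEK and CDH1 were called as falling (adjusted p 0.027, 0.00951 and 0.00329 in edgeR). None of these rising or falling calls held in every fit with 1 library left out. The log2 fold changes in those fits were 0.58 to 1.25 for ALPL and 1.80 to 2.88 for KDR. They were -0.83 to -0.60 for RUNX2, -3.18 to -1.41 for TEK and -2.63 to -1.02 for CDH1. Neither of the 2 haematopoietic markers tested, CD68 and PTPRC, was called (adjusted p 0.294 and 0.458 in edgeR). In bulk RNA of 1 sorted pool, these levels do not say how a marker is spread over the cells.

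At 3 h 1560 genes were called higher (6.6% of those tested) and 974 lower (4.12%), at an adjusted p under 0.05 (edgeR's quasi-likelihood F test, Benjamini-Hochberg adjusted). The counts called in each gene list below are to be read beside these shares. The rising genes had a median log2 fold change of 0.88, with 605 changed at least 2-fold, and the falling genes a median of -1.17, with 586 changed at least 2-fold. In CPM, the rising genes together went from 55466 to 101742, and the falling genes from 81825 to 37888. Rising and falling genes differed in type: 90.2% of the rising genes were protein coding, 54.8% of the falling genes and 62.3% of all genes tested, while long noncoding RNAs made up 7.13%, 31% and 22.4%. Among protein-coding genes that span over 200 kb, 90 rose and 92 fell of 1280, with a median log2 fold change of -0.11, whereas among those of 50 to 100 kb 284 rose and 62 fell of 2608, with a median of 0.07. The rising share did not follow span in 1 direction. From shortest to longest, with bounds at 5, 20, 50, 100 and 200 kb, it was 7.05%, 9.46%, 9.13%, 10.9%, 12.2% and 7.03%. The falling share was 3.33%, 3.35%, 3.34%, 2.38%, 4.12% and 7.19%. Both libraries at 3 h lay on the same side of both libraries at 0 h for every called gene, and for 54.7% of all genes tested. When each of the 4 libraries was left out in turn, 414 rising genes (1.75% of those tested) and 208 falling genes (0.879%) were called every time. The rising count was lowest, at 618, and the falling count lowest, at 330, without replicate 2 at 3 h, and without each of the other libraries the counts were 822 to 1013 and 488 to 650.

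**Figure D1:**
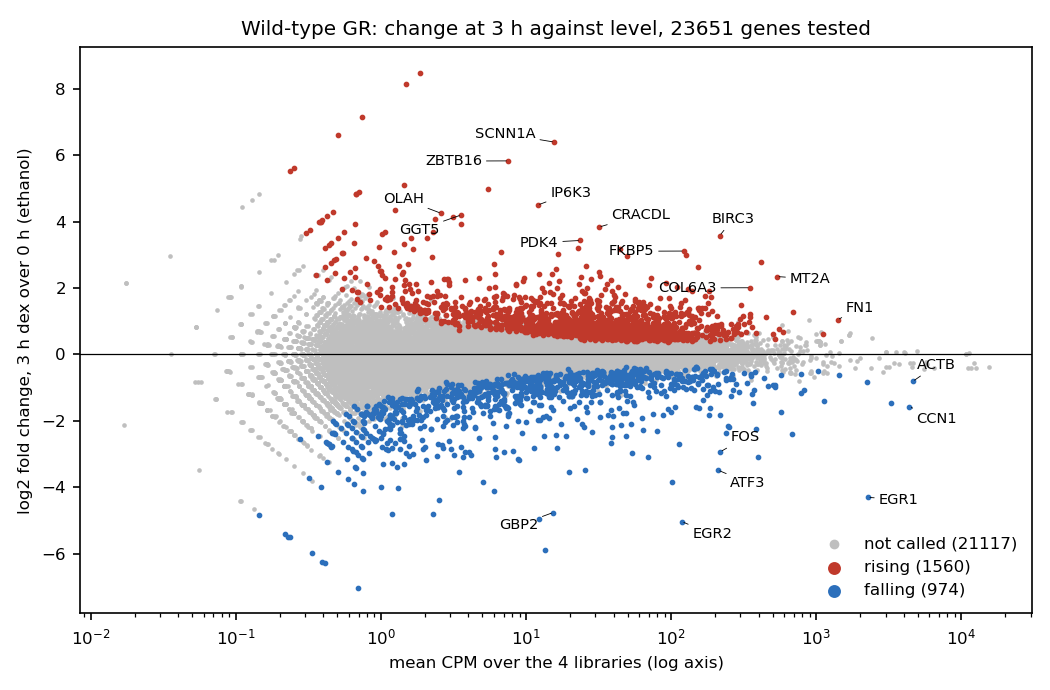
Log2 fold change at 3 h of dex over 0 h (vertical axis) against mean CPM over the 4 libraries (horizontal log axis) for the 23651 genes tested in wt GR cells, with the 1560 rising genes in red and the 974 falling genes in blue. SCNN1A lies at 6.39 and ZBTB16 at 5.82, EGR1 at -4.30 and EGR2 at -5.03.

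The first question was which of the genes known to be induced by glucocorticoids in many tissues responded in these cells. Of 35 such genes 29 passed the low-count filter, 18 rose and none fell, and the median log2 fold change was 1.27 against -0.03 over all genes tested. Of the 18, 15 stayed called without each library. IP6K3, which encodes a kinase of inositol hexakisphosphate, was at 0.809 and 1.23 CPM at 0 h and at 18.5 and 27.5 CPM at 3 h, a log2 fold change of 4.49 (SE 0.29, adjusted p 4.74e-09 in edgeR). FKBP5, the co-chaperone that lowers the affinity of GR for hormone, went from 22.8 and 28 CPM to 214 and 224 CPM. KLF9, a Krüppel-like repressor, went from 31.8 and 36 CPM to 167 and 135 CPM, which was 4.47-fold (log2 fold change 2.16, SE 0.26). For each of the 3 genes both libraries at 3 h lay far above both at 0 h, and IP6K3 differed most.

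Genes of transport, signalling and survival in the same list rose as well. TIPARP, an ADP-ribosyltransferase induced by the aryl hydrocarbon receptor, was at 58.6 and 46.2 CPM at 0 h and at 134 and 120 CPM at 3 h, and SLC19A2, a thiamine transporter, went from 29.9 and 37.4 CPM to 84.4 and 92.2 CPM. SGK1, the kinase that keeps epithelial sodium channels at the membrane, went from 218 and 295 CPM to 460 and 457 CPM (log2 fold change 0.84, SE 0.15, adjusted p 0.000956 in edgeR). SCNN1A, the alpha subunit of that channel, was nearly silent at 0 h with 0.472 and 0.231 CPM and stood at 30.7 and 31.2 CPM at 3 h. TSC22D3, also known as GILZ, an inhibitor of AP-1 and NF-kB, reached 77.6 and 61.7 CPM from 16.7 and 17.1 CPM. BIRC3, an inhibitor of apoptosis, reached 398 and 398 CPM from 35.1 and 31.6 CPM.

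Metallothioneins, small proteins that bind zinc and copper, were among the genes with the largest gain in counts. MT2A went from 187 and 166 CPM to 814 and 977 CPM, and MT1E from 120 and 91.8 CPM to 692 and 754 CPM, with log2 fold changes of 2.34 (SE 0.32) and 2.77 (SE 0.33). MT1X followed with 21.5 and 18.4 CPM at 0 h and 60.8 and 60.4 CPM at 3 h. These 3 were the called members of the 6 metallothioneins tested, whose median log2 fold change was 1.62, and none fell. The genes of this cluster on chromosome 16 are near-identical copies in part, so the division of reads among them is uncertain.

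Several textbook targets did not pass the test at 3 h. DUSP1, the phosphatase that switches off p38 and JNK, was at 986 and 1158 CPM at 0 h, 1339 and 1994 CPM at 1 h, 1255 and 1510 CPM at 2 h, and 859 and 647 CPM at 3 h. Its log2 fold change at 3 h was -0.51 (SE 0.21, adjusted p 0.127 in edgeR), although both libraries at 3 h lay below both at 0 h, and without the low-count filter the adjusted p was 0.0162. NFKBIA, the NF-kB inhibitor, had 647 and 417 CPM at 0 h and 752 and 675 CPM at 3 h (log2 fold change 0.42, SE 0.26, adjusted p 0.326). The other 9 uncalled members had log2 fold changes from -0.85 to 0.83. DDIT4, an inhibitor of mTORC1, was called with a rise from 65.3 and 82.3 CPM to 219 and 165 CPM, but without any one of the 4 libraries the adjusted p was 0.0565 to 0.164. GADD45B, a stress sensor, was called at 0.0396 and had an adjusted p of 0.303 leaving out 0 h replicate 2 and 0.361 leaving out 3 h replicate 2. CEBPD, a C/EBP factor of the acute-phase response, had 0.0553 without replicate 2 at 0 h.

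**Figure D2:**
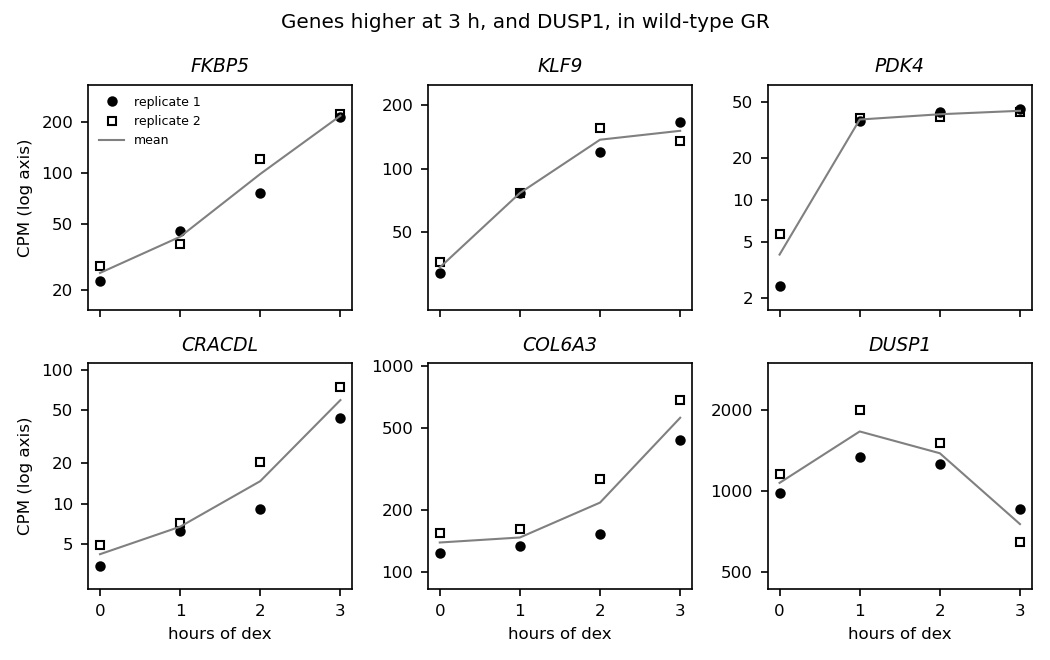
CPM in wt GR cells (vertical log axis) at 0 h (ethanol) and after 1, 2 and 3 h of dex for 6 genes, with filled circles and open squares for replicates 1 and 2 and a grey line for their mean. PDK4 was at 36.4 and 38.5 CPM by 1 h and stayed near that level, and DUSP1 was at its highest at 1 h. CRACDL and COL6A3 rose further after 2 h, CRACDL by 2.02 on the log2 scale after 1.81 from 0 h to 2 h.

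Transcription factor genes that GR is known to act through came next. In a list of C/EBP, KLF and ZBTB factors 9 of 28 tested rose and 1 fell, with a median log2 fold change of 0.08, beside -0.03 over all genes tested. CEBPB, a C/EBP factor of adipose and liver cells, went from 47.9 and 37.9 CPM to 267 and 262 CPM (log2 fold change 2.62, SE 0.37, adjusted p 5.99e-05 in edgeR). ZBTB16, also called PLZF, was at 0.135 and 0.385 CPM at 0 h and at 11.6 and 18.1 CPM at 3 h. KLF13 was at 132 and 127 CPM at 0 h and at 207 and 223 CPM at 3 h. CEBPB, ZBTB16, KLF9 and KLF13 were the 4 rising members that stayed called without each library, and the only 4 that rose without replicate 2 at 0 h.

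Of 22 clock genes tested 2 rose (9.09%, beside 6.6% of all genes tested) and none fell. PER1, a repressor of the clock with known GR response elements, was at 115 and 99.4 CPM at 0 h, 425 and 401 CPM at 2 h and 232 and 265 CPM at 3 h, a log2 fold change of 1.21 (SE 0.22, adjusted p 0.000929 in edgeR). Its level at 3 h was thus between those at 0 h and 2 h. NPAS2, a partner of BMAL1, was called at an adjusted p of 0.0451, and this call was lost without any one of the 4 libraries, with an adjusted p of 0.107 to 0.22. CRY1, a repressor that acts with PER proteins, was at 35.5 and 29.8 CPM at 0 h and at 22.7 and 18.1 CPM at 3 h (log2 fold change -0.68, SE 0.23, adjusted p 0.0629, and 0.0166 to 0.0467 in 4 other fits that called it, without the filter, with a replicate block and with 8 or 4 libraries). The median over the clock genes was 0.11.

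The receptor and its partners were examined as a group because they set how strongly a cell responds to the hormone. Of 26 genes for the receptors, chaperones and coregulators, all tested, 3 rose (11.5%) and 1 fell (3.85%), beside 6.6% and 4.12% of all genes tested. The median log2 fold change was 0.19. The risers were FKBP5, FKBP4, the co-chaperone that links GR to dynein, and DNAJA1, an HSP40 protein. FKBP4 was at 85.3 and 66.8 CPM at 0 h and at 146 and 151 CPM at 3 h, with a log2 fold change of 0.97 (SE 0.22, adjusted p 0.0053 in edgeR). That call was lost without replicate 2 at 0 h (adjusted p 0.0835), and the call of DNAJA1 was lost without any one library (0.102 to 0.163). NR3C1, the gene of GR itself, was counted together with the introduced copy and was at 1312 and 1595 CPM at 1 h and fell from 552 and 824 CPM at 0 h to 334 and 366 CPM at 3 h, with an adjusted p of 0.00347 that became 0.0915 without replicate 2 at 0 h. HSP90AA1, which encodes the chaperone that holds GR ready for hormone, was at 388 and 389 CPM at 0 h and at 458 and 421 CPM at 3 h (log2 fold change 0.18, SE 0.13, adjusted p 0.448).

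Genes of fuel choice rose more often than they fell. Glucocorticoids are known to shift tissues from glucose to fatty acids as fuel. Of 26 genes of fuel switching and lipid handling 6 rose and none fell, of 25 genes of insulin, mTORC1 and FOXO signalling also 6 rose and none fell, and the medians of the lists were 0.23 and 0.07. The rising shares were 23.1% and 24%, beside 6.6% of all genes tested. With 1 library left out 3 or 4 rose in the second list. PDK4, the kinase that shuts off pyruvate dehydrogenase, went from 2.43 and 5.69 CPM to 44.5 and 42.1 CPM. TXNIP and ARRDC2 are alpha-arrestins, and TXNIP lowers glucose uptake. TXNIP rose from 8.49 and 20.4 CPM to 33.6 and 49.6 CPM, and ARRDC2 from 19.9 and 16.2 CPM to 56.4 and 68.4 CPM (log2 fold change 1.79, SE 0.24, adjusted p 3.8e-05 in edgeR). PPARG, the nuclear receptor of adipocyte genes, rose from 9.1 and 7.85 CPM to 23.9 and 20.8 CPM. The other rising members were PLIN2 and PDP2, a pyruvate dehydrogenase phosphatase. CPT1A, CPT2 and ACADVL of the same list were tested and not called.

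FOXO1, a forkhead factor that insulin keeps out of the nucleus, was at 11.4 and 15.4 CPM at 0 h and at 61.3 and 56 CPM at 3 h, a 4.39-fold rise (log2 fold change 2.13, SE 0.29). CASTOR1, the arginine sensor that restrains mTORC1, rose 5.6-fold, from 11.1 and 8.16 CPM to 45.8 and 62.1 CPM. Both stayed called without each library. PIK3R1, the regulatory subunit of PI3-kinase, rose from 59 and 83.2 CPM to 149 and 111 CPM, but its adjusted p was 0.0817 leaving out 0 h replicate 1 and 0.0719 leaving out 3 h replicate 1. A pair of glucose transporters fell: SLC2A1, or GLUT1, from 239 and 274 CPM to 139 and 121 CPM (log2 fold change -0.98, SE 0.18), and SLC2A12, or GLUT12, from 32.4 and 50.4 CPM to 9.54 and 8.52 CPM (log2 fold change -2.19, SE 0.39). They were the falling members of a list of 24 genes of glucose uptake, glycolysis and gluconeogenesis, in which HK1 and PFKP were called as rising, with calls that were lost without at least 3 of the 4 libraries (adjusted p without a library 0.0494 to 0.239).

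The DNA just before the start of 2 rising genes is shown as an example of the half-site that GR reads. Rising genes did not hold it more often than falling or tested genes, as the shares below show. RefSeq promoters (GRCh38.p14, 250 bases before the start of the gene to 50 after it) were matched by symbol for 1138 of the called rising and 486 of the called falling genes. The half-site AGAACA, on either strand, was in 8.79% of the rising, 12.1% of the falling and 9.77% of the 13013 matched promoters of tested genes, and in 14.9% of all 27305 promoters in the table. The palindrome of AGAACA, 3 bases of any kind and the reverse complement TGTTCT, which reads the same on both strands and contains the half-site, was in 0 promoters of tested genes and in 1 of all promoters. Only these exact letters close to the start were searched, so the count says nothing of elements with other letters or farther away. The paper states that GR binds mostly at enhancers away from gene starts. Of the 12 rising genes of smallest p 8 had a promoter in the table, and 3 of these held the half-site, FKBP5 directly after its start and IP6K3 and PDK4 in the 250 bases before it. It is in capitals below, at 105 to 100 bases before the start in IP6K3 (chr6:33746906-33747155, minus strand) and, as its reverse complement, at 246 to 241 bases before the start in PDK4 (chr7:95596517-95596766, minus strand).
IP6K3: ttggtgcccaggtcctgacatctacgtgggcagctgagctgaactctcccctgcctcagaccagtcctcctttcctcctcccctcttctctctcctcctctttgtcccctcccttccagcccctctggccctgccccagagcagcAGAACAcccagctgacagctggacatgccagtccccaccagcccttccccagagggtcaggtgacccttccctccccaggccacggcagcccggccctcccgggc
PDK4: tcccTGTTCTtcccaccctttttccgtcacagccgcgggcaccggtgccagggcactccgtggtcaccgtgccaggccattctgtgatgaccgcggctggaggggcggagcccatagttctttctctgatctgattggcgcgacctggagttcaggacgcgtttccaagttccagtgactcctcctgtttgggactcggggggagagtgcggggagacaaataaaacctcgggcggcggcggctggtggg

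The second question was what fell. The immediate-early genes, transcription factors switched on within minutes by growth factors and stress, had the highest share of falling members of the 36 gene lists: 19 of 30 tested members fell, 1 rose, and the median log2 fold change was -1.16. Of the 19, 14 stayed called without each library. EGR1, a zinc-finger factor, was at 2953 and 5682 CPM at 0 h and at 209 and 229 CPM at 3 h, a log2 fold change of -4.30 (SE 0.32, adjusted p 1.38e-08 in edgeR). EGR2 was at 88.7 and 371 CPM at 0 h and at 6.56 and 7.48 CPM at 3 h. FOS, an AP-1 subunit, went from 253 and 518 CPM to 48.1 and 53.1 CPM, and FOSB from 21.3 and 51.3 CPM to 3.95 and 2.31 CPM. In each of these genes replicate 2 at 0 h was higher than replicate 1, and both libraries at 3 h lay far below both at 0 h.

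The fall was not shared evenly within the AP-1 family. Of the 30 members of the immediate-early list 10 were not called, FOSL2, JUNB and JUND among them. JUN, the main partner of FOS, fell from 925 and 1299 CPM to 468 and 592 CPM, a log2 fold change of -1.07 (SE 0.18, adjusted p 0.00052 in edgeR), and ATF3, a stress-induced relative, from 233 and 536 CPM to 38.9 and 30.1 CPM (log2 fold change -3.48, SE 0.28). MYC, the growth-promoting factor, fell from 1023 and 1138 CPM to 485 and 487 CPM. NR4A2, an orphan nuclear receptor, fell from 70.9 and 94.4 CPM to 18 and 11.9 CPM. IER5L, an immediate-early response gene of little known function, was the exception and rose from 13.5 and 11 CPM to 32.5 and 43 CPM, with an adjusted p of 0.0723 leaving out 0 h replicate 2 and 0.0818 leaving out 3 h replicate 2. The falling genes that lost the call in some fits were FOSL1, EGR3, NR4A1, NR4A3 and ARC, each without 1 or 2 of the libraries and with the highest adjusted p, 0.14, for NR4A1 without replicate 2 at 0 h. Without that library EGR3 and ARC had 0.102 and 0.0721, and without replicate 2 at 3 h NR4A3 and FOSL1 had 0.104 and 0.0599.

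**Figure D3:**
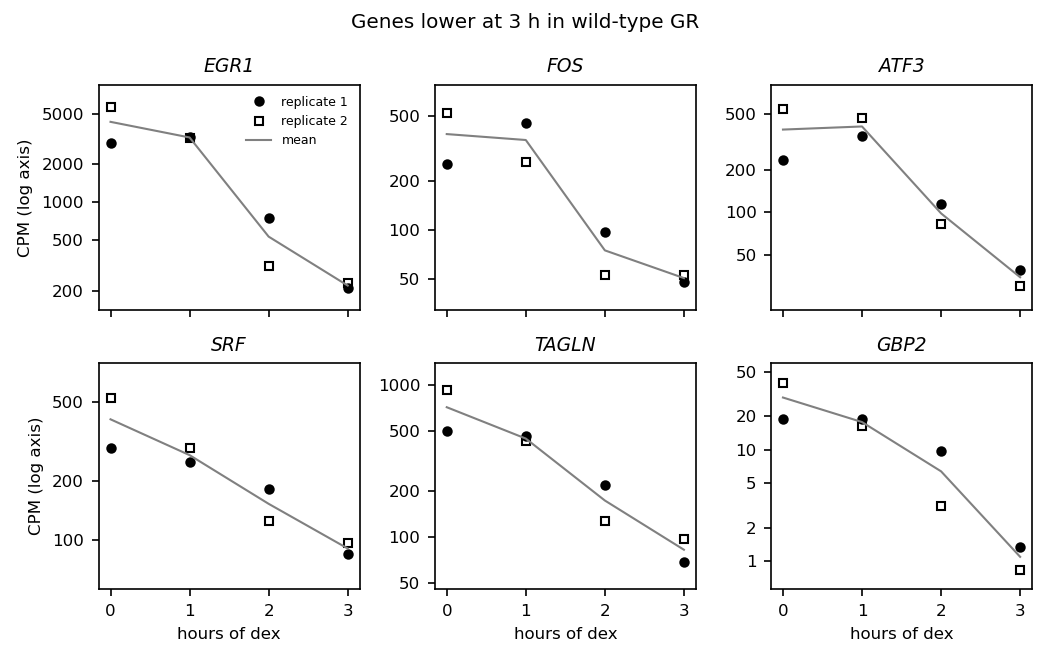
CPM in wt GR cells (vertical log axis) at 0 h (ethanol) and after 1, 2 and 3 h of dex for 6 genes, with filled circles and open squares for replicates 1 and 2 and a grey line for their mean. EGR1, FOS and ATF3 lay between the 0 h replicates at 1 h and below both at 2 h and 3 h, while GBP2 ended at 1.34 and 0.838 CPM.

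Genes of the actin cytoskeleton that serum response factor (SRF) controls fell with them. Of 25 such genes, all tested, 12 fell and none rose, with a median log2 fold change of -0.80. Leaving out 0 h replicate 2 or 3 h replicate 1 left 5. SRF itself, which binds the CArG box with actin-regulated coactivators, was at 293 and 526 CPM at 0 h and at 84.9 and 96.8 CPM at 3 h (log2 fold change -2.17, SE 0.30, adjusted p 5.54e-05 in edgeR). TAGLN, an actin-binding protein of smooth muscle, fell from 500 and 921 CPM to 68.6 and 97 CPM, CNN1, calponin, from 50.9 and 82.5 CPM to 9.61 and 11.4 CPM, and LIMA1, which stabilises actin filaments, from 357 and 443 CPM to 108 and 71.6 CPM. SRF, these 3 and TPM4, a tropomyosin, with 424 and 576 CPM at 0 h and 207 and 230 CPM at 3 h, were the 5 that stayed called without each library. ACTB, beta-actin, gave one of the largest losses in counts, from 5583 and 6192 CPM to 3056 and 3660 CPM, and ACTG1, gamma-actin, went from 2555 and 3105 CPM to 1395 and 1817 CPM. Their log2 fold changes were -0.81 (SE 0.21) and -0.82 (SE 0.22). The call of ACTB was lost without replicate 2 at 0 h, replicate 1 at 3 h or replicate 2 at 3 h (adjusted p 0.0538 to 0.152), and that of ACTG1 without replicate 2 at 0 h or replicate 1 at 3 h (0.142 and 0.2).

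The CArG box, searched after these values were seen, was in 8 of the 22 matched promoters of the SRF and actin list. This is a list of textbook SRF targets for which such boxes are known. Of the 8 genes, ACTG1, ACTG2, TPM4, CNN2 and SRF were called as falling, and FLNA, FHL2 and FILIP1L were not called. CNN1, which fell, was matched and held no box. The box was in 3.7% of the matched falling genes, 1.05% of the matched rising genes, 1.08% of all matched tested genes and 1.29% of all promoters in the table. The 250 bases before the start are printed for EGR1 (chr5:138465229-138465478, plus strand), SRF (chr6:43171019-43171268, plus strand) and ACTG1 (chr17:81512800-81513049, minus strand), EGR1 and SRF because both hold 2 boxes and ACTG1 as a highly expressed member with 1. Boxes are in capitals, at 105 to 96 and 83 to 74 bases before the start in EGR1, at 30 to 21 and 10 to 1 in SRF and at 94 to 85 in ACTG1. The GR half-site, which ACTG1 also holds, is left in lower case here. The other motifs searched were the AP-1 site TGANTCA, in 4.04% of the rising, 8.64% of the falling and 5.13% of the tested genes' promoters and 7.76% of all, and the EGR site GCGTGGGCG on either strand, in 2.72%, 1.03%, 1.27% and 0.784%. A match says only that these letters are present.
EGR1: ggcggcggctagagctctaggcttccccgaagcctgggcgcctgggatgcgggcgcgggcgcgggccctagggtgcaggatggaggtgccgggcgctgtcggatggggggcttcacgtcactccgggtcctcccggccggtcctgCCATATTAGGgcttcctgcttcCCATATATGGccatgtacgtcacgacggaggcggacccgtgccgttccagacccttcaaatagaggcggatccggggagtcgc
SRF: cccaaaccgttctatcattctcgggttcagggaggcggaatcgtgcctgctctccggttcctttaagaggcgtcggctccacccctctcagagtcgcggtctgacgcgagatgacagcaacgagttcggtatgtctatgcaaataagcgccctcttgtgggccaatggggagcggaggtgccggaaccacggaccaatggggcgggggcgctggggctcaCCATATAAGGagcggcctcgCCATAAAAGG
ACTG1: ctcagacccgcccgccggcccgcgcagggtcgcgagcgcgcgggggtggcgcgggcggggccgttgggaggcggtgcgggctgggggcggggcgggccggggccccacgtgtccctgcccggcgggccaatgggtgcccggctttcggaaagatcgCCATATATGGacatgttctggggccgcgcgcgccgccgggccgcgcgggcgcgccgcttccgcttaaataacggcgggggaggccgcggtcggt

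Among 20 tested targets of YAP and TEAD, which respond to cell tension, 5 fell and 3 rose, with a median of -0.29, and 3 fell without replicate 2 of either group. CCN1, a matrix protein also called CYR61, lost more CPM than any other called gene, from 5108 and 8008 CPM to 2472 and 1950 CPM (log2 fold change -1.57, SE 0.18, adjusted p 8.31e-06 in edgeR). CCN2, also called CTGF, fell from 2967 and 6676 CPM to 1582 and 1926 CPM, with an adjusted p of 0.000944 that became 0.0633 without replicate 2 at 0 h. F3, tissue factor, which starts coagulation, moved the other way, from 28.1 and 32.5 CPM to 82.8 and 93.6 CPM.

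Feedback inhibitors of MAPK and EGFR signalling were split, with 4 rising and 3 falling of 17 tested and a median of -0.03, or 1 or 2 rising with 1 library left out. DUSP5, a nuclear ERK phosphatase, fell from 88.2 and 198 CPM to 41.1 and 50.1 CPM (log2 fold change -1.65, SE 0.26, adjusted p 0.000254 in edgeR), and was the 1 member that stayed called without each library. Of the EGFR ligands, HBEGF rose from 79.9 and 73.2 CPM to 200 and 372 CPM and EGF fell from 20.8 and 24.2 CPM to 4.55 and 3.63 CPM. Both kept the call without each library.

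Inflammatory genes showed no single direction. Of 18 cytokines and chemokines tested 5 rose (CCL2, CSF1, LIF, CX3CL1 and CLCF1) and 1 fell, and the median was 0.56, but no rising call stayed without each library, and 0 rose without replicate 2 at 3 h. LIF, a cytokine of the interleukin-6 family, was at 185 and 238 CPM at 0 h and at 402 and 575 CPM at 3 h, with a log2 fold change of 1.21 (SE 0.29, adjusted p 0.00823 in edgeR) and an adjusted p of 0.103 leaving out 0 h replicate 1 and 0.138 leaving out 3 h replicate 2. CCL2, which draws monocytes, was at 88.6 and 62.6 CPM at 0 h and at 138 and 226 CPM at 3 h, with an adjusted p of 0.0277 that was 0.0578 leaving out 0 h replicate 1, 0.2 leaving out 0 h replicate 2 and 0.296 leaving out 3 h replicate 2. TNFSF15, a TNF-family ligand, fell from 19.4 and 21.5 CPM to 6.56 and 4.61 CPM in every fit. CCL3, a chemokine outside the list that has a near-identical copy, fell from 15.1 and 37.9 CPM to 0.596 and 0.279 CPM. It was picked after its values were seen. IL6, a classic target of GR repression, was at 4.85 and 3.54 CPM at 0 h and 3.73 and 2.93 CPM at 3 h and was not called (adjusted p 0.578). CXCL8, another such target, was at 143 and 168 CPM and then 247 and 267 CPM, so that both libraries at 3 h were higher. Its adjusted p was 0.375, but 0.0141 in a fit of the 4 libraries alone and 0.000513 without the low-count filter.

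PTGS2, the inducible cyclooxygenase that makes prostaglandins, fell from 42.6 and 90.4 CPM to 12.9 and 10.6 CPM (log2 fold change -2.50, SE 0.26, adjusted p 1.67e-06 in edgeR). GBP1 and GBP2, guanylate-binding proteins that interferon induces, fell from 33.9 and 60 CPM to 3.5 and 4.82 CPM and from 19 and 40.2 CPM to 1.34 and 0.838 CPM. They were the falling members of 26 interferon-induced genes tested, of which 1, IFIT5, rose, and whose median was -0.15. Of 21 NF-kB feedback genes 4 rose and 2 fell. NFKB1, a subunit of NF-kB, rose from 58.2 and 56.9 CPM to 134 and 135 CPM, TRAF3, an adaptor that restrains the noncanonical pathway, from 19.5 and 20 CPM to 59.3 and 56.9 CPM, while NFKBIZ, a nuclear IkB protein, fell from 258 and 327 CPM to 144 and 123 CPM.

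Receptors and transducers of cytokines rose more than they fell, with 5 up and 1 down of 28 tested and a median of 0.24, or 3 up without replicate 2 at 3 h. The rising and falling shares were 17.9% and 3.57%, beside 6.6% and 4.12% of all genes tested. IL1R1, the interleukin-1 receptor, rose from 9.37 and 11.5 CPM to 24.9 and 31.9 CPM (log2 fold change 1.45, SE 0.19, adjusted p 2.84e-05 in edgeR), IL4R from 10.7 and 10.6 CPM to 21.2 and 27.6 CPM, and IL6ST, the shared gp130 chain, from 118 and 113 CPM to 214 and 200 CPM. STAT3, the factor downstream of gp130, fell from 197 and 189 CPM to 118 and 125 CPM. All 4 stayed called without each library.

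Matrix genes changed in both directions. Of 30 collagens and matrix proteins 5 rose and 3 fell, with a median of 0.03, but leaving out 0 h replicate 1 or 3 h replicate 2 left 2 rising. COL6A3, a chain of collagen VI, rose from 124 and 154 CPM to 434 and 685 CPM (log2 fold change 2.01, SE 0.26, adjusted p 3.7e-05 in edgeR), and COL3A1, the chain of collagen III, fell from 59.5 and 58.3 CPM to 21.9 and 15 CPM (log2 fold change -1.67, SE 0.20). FN1, fibronectin, had the largest gain in CPM of any called gene, from 808 and 1024 CPM to 1500 and 2269 CPM, but its adjusted p of 0.0183 became 0.155 leaving out 0 h replicate 1 and 0.255 leaving out 3 h replicate 2. ACAN, aggrecan, the large proteoglycan of cartilage, was not in the list and rose 9.25-fold, from 4.58 and 4.31 CPM to 35.7 and 46.8 CPM.

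Proteases of the matrix fell more often than they rose, with 5 down and 2 up of 18 tested, or 3 down when any library but 0 h replicate 1 was left out. ADAMTS1, which cleaves aggrecan and versican, fell from 80.9 and 108 CPM to 16.2 and 8.24 CPM (log2 fold change -2.95, SE 0.30, adjusted p 1.31e-06 in edgeR), and ADAMTS5, the main aggrecanase, from 10.3 and 6.92 CPM to 2.61 and 2.72 CPM. MMP2, gelatinase A, fell from 110 and 131 CPM to 51.6 and 61.6 CPM, with adjusted p of 0.0652 leaving out 0 h replicate 2 and 0.0858 leaving out 3 h replicate 1. In the TGF-beta and BMP list 8 rose and 6 fell of 34 tested, with a median of 0.20, and with 1 library left out 2 to 6 rose and 2 to 4 fell, the fewest without replicate 2 at 3 h. TGFBR2, the ligand-binding receptor, rose from 85 and 106 CPM to 216 and 237 CPM, SMAD3 from 165 and 144 CPM to 246 and 277 CPM, and FST, which traps activins, fell from 93 and 107 CPM to 50.7 and 31 CPM. These 3 stayed called without each library.

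In a list of Notch, Wnt and Hedgehog feedback genes 6 rose and 1 fell of 23 tested, with a median of 0.47, and 3 rose without replicate 1 at 0 h. AXIN2, a feedback inhibitor of Wnt signalling, rose from 37.5 and 36.5 CPM to 100 and 110 CPM (log2 fold change 1.51, SE 0.17, adjusted p 4.49e-06 in edgeR), and LEF1, a nuclear effector of the pathway, from 9.17 and 12.8 CPM to 32.8 and 46.4 CPM. The 4 other rising members were not called in every fit. Of 27 cyclins, CDKs and CDK inhibitors 4 rose and 1 fell, 1 or 2 rising with 1 library left out, and CCND3, cyclin D3, went furthest, from 32.7 and 20.9 CPM to 103 and 125 CPM (log2 fold change 2.08, SE 0.23, adjusted p 4.49e-06).

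Housekeeping and proliferation genes moved little. Of 58 cytosolic ribosomal protein genes 0 were called in edgeR and 0 in DESeq2, 4 had an unadjusted p under 0.05, and the median was -0.13. Of the 13 mitochondrially encoded protein genes 0 were called in edgeR, 0 in DESeq2 and 0 at an unadjusted p under 0.05, with a median of -0.26. Of 37 DNA replication genes 1 fell, and of 35 mitosis genes 1 fell. Ribosome biogenesis factors were the exception: 7 of 40 rose and none fell, with a median of 0.32, but leaving out 1 library gave 2 to 8, the fewest when it was replicate 1 at 3 h. BOP1 and RRP1B were the 2 called in every such fit. BOP1, a factor of large-subunit assembly, was at 33.2 and 26.2 CPM at 0 h and at 58.2 and 67.1 CPM at 3 h. The ATF4 and amino acid list had 5 falling and 1 rising of 28, or 2 falling without replicate 2 at 3 h, with STC2, stanniocalcin 2, at 1.82 and 1.77 CPM and then 0.149 and 0.349 CPM. In the NRF2 list 5 rose and 1 fell of 25, none in every fit and 1 or 2 rising with 1 library left out. The falling share was thus 17.9% in the ATF4 list and the rising share 20% in the NRF2 list, beside 4.12% and 6.6% of all genes tested. Of 26 p53 targets 3 fell, of 18 hypoxia genes 1 rose and 2 fell, and of 27 splicing factors and kinases 1 rose. Of 20 mRNA decay factors 3 rose and 2 fell, and of 31 genes of cholesterol and fatty acid synthesis 3 rose and 1 fell. Epithelial ion transport did not move little: of 17 genes 6 rose (35.3%) and 1 fell (5.88%). With 1 library left out these counts fell to 0 to 2 for p53 targets, 0 to 2 rising for cholesterol and fatty acid synthesis and 3 or 4 rising for ion transport. Of 19 heat shock genes 2 rose, with CRYAB, alpha-B crystallin, at 84.1 and 82.2 CPM at 0 h and 190 and 252 CPM at 3 h.

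**Figure D4:**
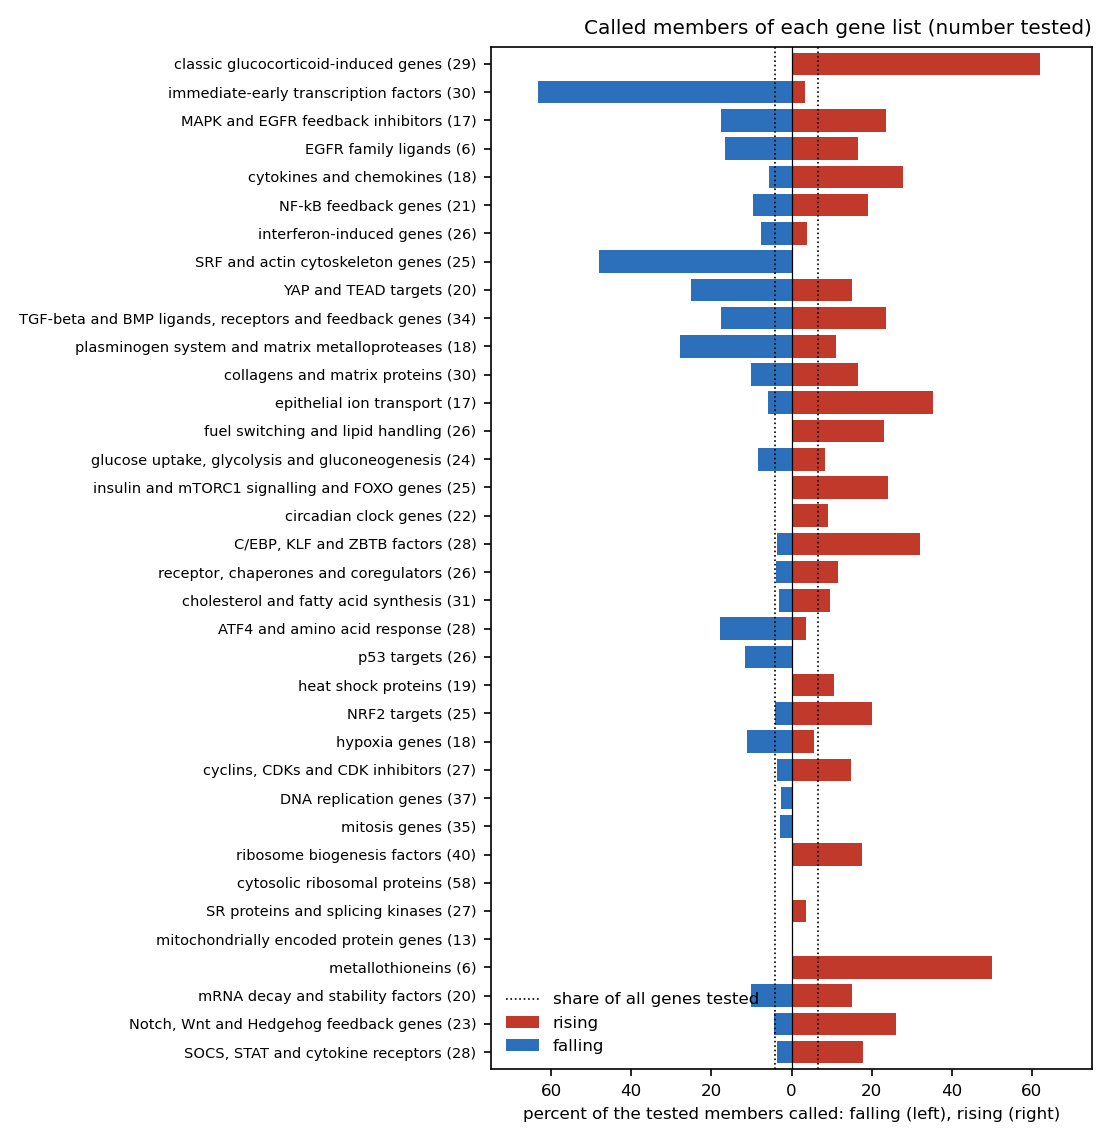
Percent of the tested members of each of 36 gene lists called at 3 h in wt GR cells, rising members to the right in red and falling members to the left in blue, with the number tested in brackets. Dotted lines mark the shares over all genes tested, 6.6% rising and 4.12% falling, and the widest bars are the glucocorticoid-induced genes on the right and the immediate-early genes on the left.

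Outside the lists, the genes with the smallest p also included several of less studied function. ADPRHL1, an ADP-ribosylhydrolase-like protein of the heart, rose from 10.3 and 12.2 CPM to 75 and 100 CPM, and was at 43.5 and 82.5 CPM by 1 h. CRACDL, a relative of a capping protein inhibitor, rose from 3.44 and 4.92 CPM to 43.9 and 74.6 CPM. OLAH, a thioesterase that releases fatty acids, rose from 0.27 and 0.231 CPM to 4.1 and 5.8 CPM, and GGT5, which converts leukotriene C4, from 0.337 and 0.385 CPM to 7.08 and 6.5 CPM. ZNF189, a zinc-finger protein, and RAB7B, a small GTPase of endosomes, rose 7.95-fold and 5.9-fold. Among falling genes, TUFT1, tuftelin, went from 332 and 461 CPM to 74.9 and 79 CPM, SNX18, a sorting nexin, from 132 and 175 CPM to 52.8 and 39.4 CPM, MAP3K7CL from 85.1 and 85.5 CPM to 21.4 and 18.7 CPM and TSPAN2, a tetraspanin, from 18.9 and 20.7 CPM to 5.51 and 4.47 CPM. KRTAP2-3, a keratin-associated protein gene, fell 8.41-fold and RFPL4A and RFPL4AL1 fell 3.52-fold and 3.62-fold, but each of these has a near-identical copy, so the counts of single copies are uncertain. Of the other genes with the largest gain in CPM, SLC20A1, a phosphate transporter, rose from 414 and 390 CPM to 986 and 954 CPM, and SLC38A2, an amino acid transporter, was called at 0.0357 and lost the call without any library except replicate 2 at 3 h (adjusted p 0.117 to 0.44).

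Of the long noncoding RNAs, MYOSLID, which is known from smooth muscle cells, rose from 31.6 and 38.5 CPM to 89 and 88.2 CPM and was already at 91.2 and 87.3 CPM at 1 h (log2 fold change at 3 h 1.34, SE 0.13, adjusted p 1.11e-06 in edgeR). LINC02772 went from 0.0674 and 0.462 CPM to 4.17 and 4.75 CPM. SFTA1P, a surfactant-associated pseudogene by name, fell from 83.3 and 62.1 CPM to 21.1 and 12.4 CPM. LINC00452 fell from 232 and 259 CPM to 107 and 104 CPM, and CFLAR-AS1, antisense to the apoptosis regulator CFLAR, from 40.6 and 39.9 CPM to 12.7 and 11.7 CPM. These 5 stayed called without each library. The 3 others named by the same rule, ENSG00000287692, ENSG00000288542 and ENSG00000253227, have no symbol, and their log2 fold changes were 2.10, 2.20 and -1.96.

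The step from 2 h to 3 h asked what was still moving in the last hour. Of the genes tested 121 were higher at 3 h than at 2 h (0.512%) and 40 lower (0.169%) in edgeR, with the same 3 h libraries in this comparison and the one with 0 h. The count rested on single libraries: without replicate 2 at 3 h it was 0 and without replicate 1 at 2 h it was 3, against 161 with all. LEF1 was at 8.96 and 14.6 CPM at 2 h and at 32.8 and 46.4 CPM at 3 h, a log2 difference of 1.76 (SE 0.23, adjusted p 0.000759 in edgeR), and CRACDL at 9.11 and 20.3 CPM and then 43.9 and 74.6 CPM, a difference of 2.02 (SE 0.31). FKBP5 was at 75.6 and 121 CPM at 2 h, a difference of 1.15 (SE 0.20). ATF3 fell further from 114 and 81.9 CPM at 2 h, a difference of -1.51 (SE 0.27). For PDK4, MYOSLID, MT2A and SCNN1A no change between 2 h and 3 h was called.

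The last comparison was with the mutant receptors at the same time, in libraries other than those of wt. The replicate 2 minus replicate 1 differences at 0 h correlated between the lines over the tested genes (r 0.396 for wt and SoF, 0.394 for wt and Ctrl), so the 0 h libraries of the same number deviated together. In SoF 2645 genes rose at 3 h (11.2%) and 1918 fell (8.11%), and in Ctrl 2029 rose (8.58%) and 1325 fell (5.6%). Of the 1560 genes that rose in wt, 1333 also rose in SoF, 85.4% of the wt list and 50.4% of the SoF list, and 1031 rose in Ctrl, 66.1% and 50.8%. Of the 974 that fell, 714 fell in SoF, 73.3% and 37.2%, and 588 in Ctrl, 60.4% and 44.4%. No gene called in wt was called the opposite way in either line. The test of the difference itself called 0 genes for SoF against wt and 0 for Ctrl against wt in edgeR, with 558 and 845 at an unadjusted p under 0.05, and in DESeq2 0 and 1.

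The groups described above stood side by side as follows. The immediate-early list had median log2 fold changes of -1.16 (wt), -1.30 (SoF) and -1.17 (Ctrl), and the SRF and actin list -0.80, -0.62 and -0.71. The glucocorticoid-induced list had 1.27 (wt), 1.50 (SoF) and 0.16 (Ctrl). The log2 fold change of PDK4 was 3.43 (SE 0.30) in wt cells, 4.15 (SE 0.31) in SoF cells and 0.11 (SE 0.54) in Ctrl cells, and TSC22D3 had 2.04 (SE 0.34), 2.33 (SE 0.34) and 0.10 (SE 0.34). Other members of the glucocorticoid-induced list rose in all 3 lines. In the same order SCNN1A had 6.39, 5.59 and 5.72, IP6K3 4.49, 4.67 and 3.66, and FKBP5 3.11, 3.68 and 2.39. COL6A3 had 2.01, 2.32 and 2.53, and LEF1 had 1.86, 1.95 and 1.83. The adjusted p of the difference between Ctrl and wt was 0.748 for PDK4 and 0.982 for TSC22D3 in edgeR, so neither was called. Other fits of the same difference called more: DESeq2 called PDK4 (adjusted p 7.37e-05), edgeR without wt 0 h replicate 2 called PDK4, TXNIP, PTGS2 and WDR90 (0.0178 for PDK4 and for TXNIP), and edgeR without the low-count filter called 17 genes, with PDK4, TXNIP, TSC22D3, SLC19A2, SGK1, KLF9, BIRC3, DDIT4, MT1X, F3, ZNF189 and CXCL8 among them. Leaving out any other library of the 2 lines called 0.

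**Figure D5:**
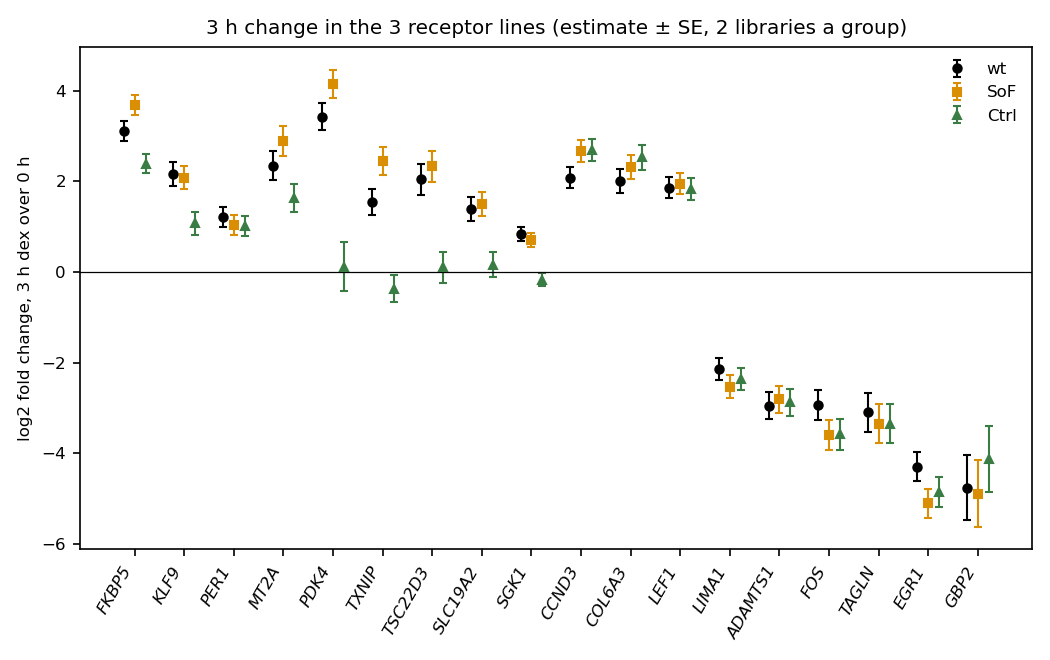
Log2 fold change at 3 h of dex over 0 h, with its SE from edgeR, for 18 genes in wt (black circles), SoF (orange squares) and Ctrl (green triangles) cells, 2 libraries a group. PDK4, TXNIP, TSC22D3, SLC19A2 and SGK1 lie between -0.37 and 0.16 in Ctrl, while FKBP5 lies at 2.39 and MT2A at 1.64 there. The 6 falling genes lie below 0 in all 3 lines.

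Only the name of the table says that counting used strand. Exons of at least the following genes named above overlap an exon on the other strand, so that without strand their counts could include those of the other gene: SPARC, COL1A1, TWIST1, CD68, CDH1, KRT8, KRT18, SCNN1A, TSC22D3, BIRC3, CEBPB, ZBTB16, NPAS2, BMAL1, CRY1, FKBP4, HSP90AA1, ARRDC2, SLC2A1, SLC2A12, HK1, MYC, IER5L, EGR3, NR4A1, TAGLN, TPM4, ACTG1, CCN2, LIF, IL6, PTGS2, IL1R1, IL4R, IL6ST, SMAD3, LEF1, CCND3, CRYAB, MYOSLID, LINC00452 and CFLAR-AS1.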

How the data were processed

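The authors deposited 1 table of exon counts per gene for all 24 libraries. According to the methods and the submitters' processing notes, reads were trimmed with Trim Galore 0.6.6, aligned to hg38 with STAR 2.7.3a, deduplicated by molecular identifier with UMI-tools 1.1.2 and counted with featureCounts on GENCODE 39. These deposited counts were not normalized. Of the 61533 genes 99.7% were matched by identifier to GENCODE 44 for symbols and types. Genes were filtered with filterByExpr (minimum count 10, minimum total 15), which left 23651 of the 48707 with a count.

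Counts were fitted with edgeR 4.0.16 (TMM scaling, quasi-likelihood F test, 12 groups of 2 libraries, all 24 libraries sharing 1 estimate of the spread) in R 4.3.3, with Benjamini-Hochberg adjustment over all tested genes and a threshold of 0.05. The script was tested on simulated counts. SE is that of the log2 fold change. Alternatives were DESeq2 1.42.0, other scalings, other sets of libraries, no filter and each library left out. The comparison and the gene lists were chosen with earlier results of these data known.

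Genes were named by rule: the 12 rising and 12 falling protein-coding genes of smallest p with non-overlapping libraries and a mean of at least 1 CPM in the higher group, up to 4 called members per list and direction, the glucocorticoid, clock and receptor lists, 4 lncRNAs per direction, and the 5 largest rises and falls in CPM. From these, members that illustrate a function were described. IL6, CXCL8 and CRY1 and the motif CArG box were chosen after values were seen.

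Replicate numbers are shared between groups, and no source says that a number marks a batch across groups. The correlation of replicate differences was -0.068 between wt 0 h and wt 3 h, -0.068 to 0.299 among the wt groups and 0.394 to 0.568 among the 0 h groups of the 3 lines. Since wt 0 h and wt 3 h did not deviate together, libraries were not paired.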

Additional observations from a re-analysis of the deposited data

Results flagged for a closer look

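SGK1, the kinase of sodium channel traffic, rose in wt, with a log2 fold change of 0.84 (SE 0.15), and was not shown to move in Ctrl, with -0.17 (SE 0.15, adjusted p 0.512 in edgeR). It was picked out because both 3 h libraries lay above both 0 h libraries in wt and below both in Ctrl. The difference itself was -1.0 (SE 0.22) with an adjusted p of 0.982 in edgeR, so it was not called. Without the low-count filter it was among 17 genes called (adjusted p 0.034), and its adjusted p was 0.108 in DESeq2 and 0.0738 in edgeR without wt 0 h replicate 2.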

How the results depend on the processing

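Against 2534 genes called at 3 h in wt, the total was 1394 to 1522 without any one library except replicate 2 at 3 h and 948 without that one, so leaving out 1 library gave 948 to 1522 in all, 618 to 1013 rising and 330 to 650 falling. Requiring at least 1 in absolute log2 fold change left 1191, of which 605 rose and 586 fell. RLE size factors, library totals alone, no low-count filter, DESeq2 and fits of 8 wt or 4 libraries gave 1895 to 2877, with rising genes 61.6% of the calls in edgeR as reported, 65.8% with library totals and 55.2% without the filter. With a replicate block the total was 2983 (1797 rising, 1186 falling). That block does not pair libraries by design, and it moved the 2 h to 3 h count from 161 to 256. The 2 h to 3 h count was 306 in DESeq2, 444 without the filter and 0 to 175 without 1 library. For the difference of the response from wt, leaving the filter out called 4 genes in SoF and 17 in Ctrl, DESeq2 called 1 in Ctrl, and leaving out 1 library gave 0 to 4 in Ctrl (4 without wt replicate 2 at 0 h, with PDK4 and TXNIP) and 0 in SoF. Of the 108 genes given with levels or fold changes 0 changed direction under any of these alternatives. For the 102 called genes among them this was largely fixed in advance. Both of their libraries at 3 h lay on the same side of both at 0 h. Across the genes and alternatives the call was lost 43 times, 28 of these without 1 library, and gained 7 times. The cause of these shifts was not tested, except that the size threshold removes calls by construction. The smallest called change was 0.38 on the log2 scale.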

Other observations

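Outside the gene lists and the rules for named genes, 8 protein-coding genes changed by at least 4 on the log2 scale and were called without each library, 7 rising and 1 falling. They were picked after their values were seen. EDN3, which encodes the peptide endothelin 3, had no count at 0 h and 2.76 and 3.14 CPM at 3 h, at least 27.4-fold higher against a floor of 3 counts over both 0 h libraries. MYL10, a myosin light chain, had no count at 0 h and 0.745 and 1.26 CPM at 3 h, at least 9.37-fold higher, and PRB2, a salivary proline-rich protein with a near-identical relative, was at least 35.1-fold higher. ONECUT3, a homeobox factor of liver and neurons, went from 0.337 and 0.308 CPM to 8.79 and 12.4 CPM, 31.8-fold higher. SLAMF8, a receptor of myeloid cells, DNER, a Notch ligand, and CMKLR1, the chemerin receptor, rose 34.1-fold, 20.2-fold and 17.7-fold from under 1 CPM. CCL3, a chemokine with a near-identical copy, fell from 15.1 and 37.9 CPM to 0.596 and 0.279 CPM, 59.6-fold lower.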
